A study of Mus musculus with 4 samples.

Results

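The muscle regulatory factor genes Myod1, Myf5, Myf6 and Myog were looked up in the HA-hWDR5 peak lists of mouse embryoid bodies. They were selected on the number and the fold of the Myod1 peaks in these same lists, which were already known, so their values are given as a description and no test is made on them. A peak was assigned to a gene when its summit lay inside the gene or within 20 kb of either end, with gene ends from the RefSeq annotation of GRCm38.p6, the build mm10. By this rule 3 of 1197 peaks at T12h and 3 of 660 peaks at T48h belonged to the 4 genes, which are 4 of 21887 protein-coding genes. All 6 summits lay inside Myod1.

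The 4 samples fall into 2 groups, T12h and T48h, each with 1 ChIP-seq library made with an antibody to HA, 1 input library and no replicates. In both groups the embryonic stem cells carried the Rx:GFP knock-in, lacked Wdr5 (Wdr5 KO) and had an HA-tagged human WDR5 (HA-hWDR5) under doxycycline control. Doxycycline was added at T12h in one group and at T48h in the other; the starting point of these hours is not given. The cells were grown as embryoid bodies, aggregates of differentiating stem cells, in SFEBq culture with 5% KSR, Matrigel (2%) was present from day 1, and the design text places them at day 6. Both groups had the same fixation, with the crosslinkers DSG (2 uM, 30 min) and PFA (1%, 10 min), and 15 ug of antibody is listed. The labels do not say whether the cells were 1 clone. Peak lists measure no expression, so the labelled cell type could not be checked against marker genes.

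WDR5 is a scaffold subunit of the MLL/SET1 complexes that methylate lysine 4 of histone H3, and it also binds MYC. The muscle regulatory factors are basic helix-loop-helix transcription factors that pair with E proteins and bind the E-box, CANNTG. Myf5, Myf6 and Myod1 commit mesodermal cells to the skeletal muscle lineage, and Myog drives myoblasts into terminal differentiation. Myod1 can turn fibroblasts into muscle cells when it is expressed in them.

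After duplicate removal the T12h ChIP library kept 55539917 tags and the T48h library 67116740. The input libraries kept 54011542 and 61209779 tags. No peak lay within 20 kb of Wdr5, the deleted mouse gene, at either time, and this checks nothing about the deletion. With 1 library per time, every difference between times compares 2 libraries and has no replicate check.

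Myod1, which encodes the muscle determination factor MyoD, lies on chromosome 7 from 46376474 to 46379092, a span of 2619 bp. It held 3 separate peaks at each time, numbered here from the lower to the higher coordinate. Of all protein-coding genes, 0.0137% at T12h and 0.0228% at T48h held 3 or more summits, and Myod1 was one of these. The genes were chosen with this count known, so nothing is read from it.

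The first peak ran from 46376505 to 46377399 at T12h, a width of 895 bp, and held 383 tags with a fold of 26.21 over the local background. At T48h it ran from 46376470 to 46377373, a width of 904 bp, and held 1177 tags with a fold of 78.16. It thus began 31 bp inside the gene at T12h and 4 bp before the gene's lower end at T48h, so its lower edge lay at the annotated gene end at both times. The summit, the base with the most tags piled over it, lay 769 bp from the lower end at T12h and 615 bp at T48h, a shift of 154 bp.

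The second peak was the smallest. It ran from 46377628 to 46377870 at T12h, a width of 243 bp, with 35 tags and a fold of 27.87. At T48h it ran from 46377716 to 46377877, a width of 162 bp, with 88 tags and a fold of 62.13. The summit was the same base, 46377777, at both times (a shift of 0 bp). The fold was close to that of the neighbouring peaks at T12h although the second peak held 144 tags per kb, against 428 in the first and 493 in the third.

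The third peak ran from 46378068 to 46378830 at T12h, a width of 763 bp, with 376 tags and a fold of 27.25. At T48h it ran from 46378131 to 46378940, a width of 810 bp, with 1073 tags and a fold of 50.24. Its summits, 46378403 and 46378402, differed by 1 bp. It stopped short of the gene's upper end, by 262 bp at T12h and by 152 bp at T48h.

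**Figure D1:**
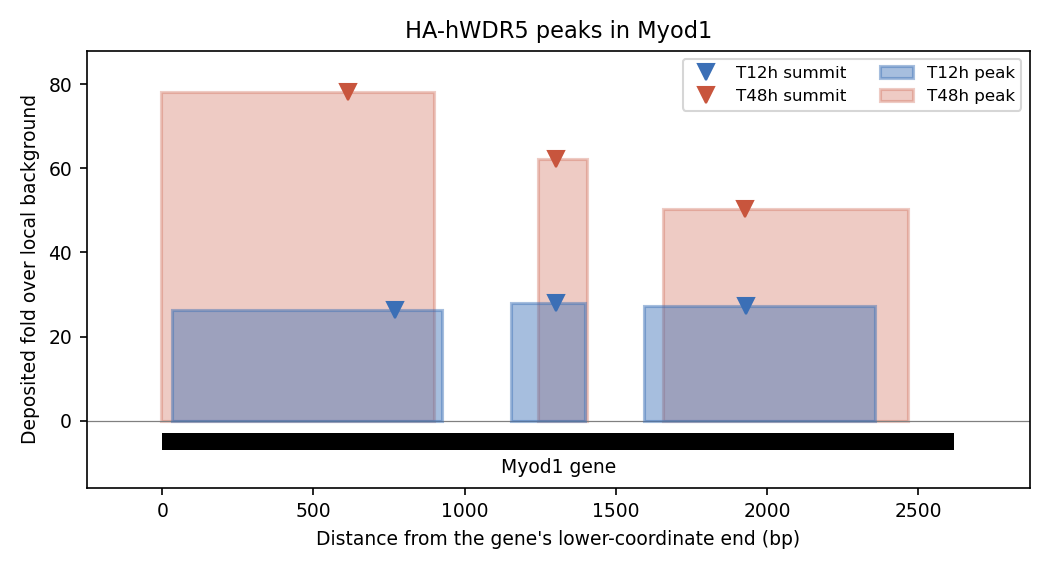
Position and fold of the HA-hWDR5 peaks in Myod1. The x axis is the distance in bp from the gene's lower-coordinate end, each box spans a peak from start to end with the deposited fold as its height, triangles mark summits, and the black bar is the gene; 3 boxes have their summits inside the gene at each time, the first T48h box beginning 4 bp before it, with folds of 26.21 to 27.87 at T12h and 50.24 to 78.16 at T48h.

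Between the peaks, the same 2 stretches of the gene lay uncovered at both times. The bases from 46377400 to 46377627, 228 bp, lay in no peak of either list between the first and the second peak. The bases from 46377878 to 46378067, 190 bp, lay in none between the second and the third. Within each list the gaps were 228 and 197 bp at T12h and 342 and 253 bp at T48h. Together the peaks covered 72.6% of the gene at T12h and 71.5% at T48h. Myod1 is known to have introns, but the annotation used gives neither their positions nor the strand of the gene, so the gaps were not set against exons. Whether the tags came from chromatin at Myod1 or from other DNA with Myod1 sequence in the libraries was not tested, and input reads were not analysed here.

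All 3 peaks were found at both times by overlap, against 18.8% of T12h peaks and 34.4% of T48h peaks that share 1 bp or more with the other list. The overlap was 869 bp for the first peak, 155 bp for the second and 700 bp for the third. It covered 97.1%, 63.8% and 91.7% of the T12h peaks and 96.1%, 95.7% and 86.4% of the T48h peaks. Over the other 221 pairs of peaks found at both times, the median shift of the summit was 57 bp, and 5 of these pairs had a shift of at most 1 bp, as had 2 of the 3 in Myod1.

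Tags were more numerous at T48h in each Myod1 peak. The 3 peaks together held 794 tags at T12h and 2338 at T48h, which is 14.3 and 34.8 for every 1000000 tags kept. The scaled ratio of T48h over T12h was 2.44 (exact binomial 95% interval 2.25 to 2.64, counting error only). Scaled to the tags held in the peaks of each list instead, it was 5.19, so the size of the difference depended on the scaling. For the single peaks the ratio scaled to tags kept was 2.54 (2.26 to 2.86), 2.08 (1.39 to 3.17) and 2.36 (2.10 to 2.66), and these intervals overlap. The intervals take no account of the limit of 1 tag per position described below. A correction for it, chosen after seeing the data and assuming evenly placed tags, gave a log2 ratio over the 3 peaks of 1.79. Uncorrected, the log2 ratio was 1.28, so the interval of 2.25 to 2.64 does not cover the effect of this limit. The first and the third peaks held 383 and 376 tags at T12h, and 1177 and 1073 at T48h. Exact Poisson intervals were 346 to 423 and 339 to 416 tags at T12h. At T48h they were 1111 to 1246 and 1010 to 1139, and each count lay outside the interval of the other. The Poisson intervals ignore the limit of 1 tag per position too.

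**Figure D2:**
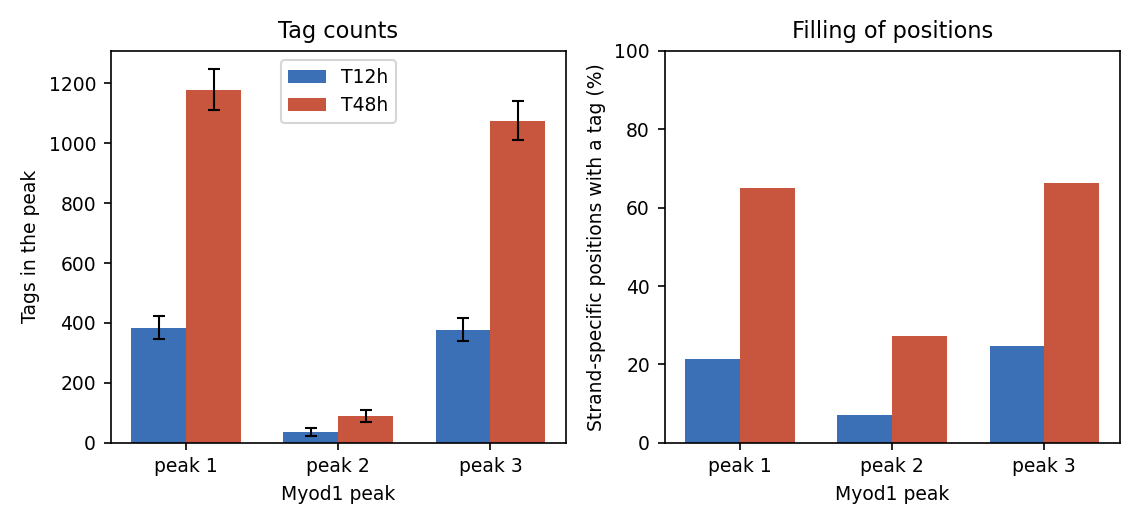
Tags in the Myod1 peaks (left, bars are deposited tag counts with exact Poisson 95% intervals) and the percent of strand-specific positions in each peak that hold a tag (right, from 0 to 100). Bars at T48h are higher for each peak, with 1177 against 383 tags in the first, and the first and the third peaks reach 65.1% and 66.2% of their positions at T48h.

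The processing set a ceiling on the tag counts, and of all T48h peaks the first and the third came closest to it. At most 1 tag was kept per position, and since the first T48h peak held more tags than bases, the limit applied to each of the 2 strands. A peak can therefore hold at most 2 tags per bp of width, which is 1808 for the first T48h peak and 1620 for the third. The first peak filled 65.1% of these positions at T48h and the third 66.2%, against 21.4% and 24.6% at T12h. The second filled 27.2% at T48h and 7.20% at T12h. These were the 3 highest values of the T48h list. Of the other 657 T48h peaks the fullest reached 24.4%, on chromosome Y with Gm52481 as the nearest gene, and the median was 5.55%. At T12h the third Myod1 peak was the fullest of the list and the first ranked 4. The Rpl26 peak, the fullest outside Myod1 at T12h, reached 21.4%.

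The rank of Myod1 depended on the measure. By score, the deposited measure of significance, the T12h peaks ranked 6, 246 and 4 of 1197, while by fold they ranked 65, 56 and 61. At T48h the first and the third peaks both stood at a score of 3100, the highest in the list, so they cannot be ordered by it, and the second ranked 69 of 660. The highest score of the T12h list was also 3100, held by 2 peaks outside Myod1, so 3100 may be a ceiling of the score. By fold the T48h peaks ranked 1, 2 and 3, and the highest fold outside Myod1 was 30.65, at the ribosomal protein gene Rpl23. Myod1 held 0.786% of all tags in T12h peaks and 4.08% of those in T48h peaks.

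The strong Myod1 peaks of T12h had high false discovery rates in the authors' list despite their scores. It was 16.67% for the first peak and 25% for the third, against 2.85% for the second and a list median of 3%. In the T48h list it was 0% for the first and the third and 2.90% for the second, against a median of 9.63%. This rate comes from calls with ChIP and input exchanged, counted against the ChIP peaks with scores at least as high. The first and the third T12h peaks ranked 6 and 4 by score. Few ChIP peaks thus entered their rates. By this definition a rate above 0% means that input-side calls reached such scores. These calls were not analysed here, and what lay behind the high rates was not tested. Tags per kb divided by fold was 16.3, 5.17 and 18.1 at T12h against a list median of 13.2. At T48h it was 16.7, 8.74 and 26.4 against 14.3. Peak shape and local background both enter this quotient, so it is no measure of the background alone. For the second peak it was the lowest of the T12h list, at rank 1197 of 1197. For the third peak it stood above the median at both times. The part of the background in the folds was not tested.

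Folds at Myod1 were higher at T48h, while most other shared peaks had lower folds at T48h. The ratio of T48h over T12h was 2.98 for the first peak, 2.23 for the second and 1.84 for the third, or log2 ratios of 1.58, 1.16 and 0.88. Of all 224 shared pairs, 32 (14.3%) had a higher fold at T48h, and the median log2 ratio was -0.56. More scaled tags at T48h were found in 22 pairs (9.82%), with a median log2 ratio of -0.69, so the Myod1 log2 ratio of 1.28 over the 3 peaks lies 1.97 above the shift of all pairs. The highest log2 ratio of scaled tags, 1.87, was not in Myod1 but in a pair on chromosome X, 316 bp from the glycolysis gene Pgk1, with 31 tags over 260 bp at T12h and 137 over 670 bp at T48h; the called widths thus differ between the times. Among 44 other pairs with a T12h fold from 21.21 to 32.87, which is within 5 of the Myod1 range, the median log2 ratio of fold was -0.57 and the highest was 0.24. That set had a median T48h fold of 19.0 and a maximum of 30.65. The genes were chosen with the Myod1 folds known, so nothing is read from this contrast.

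**Figure D3:**
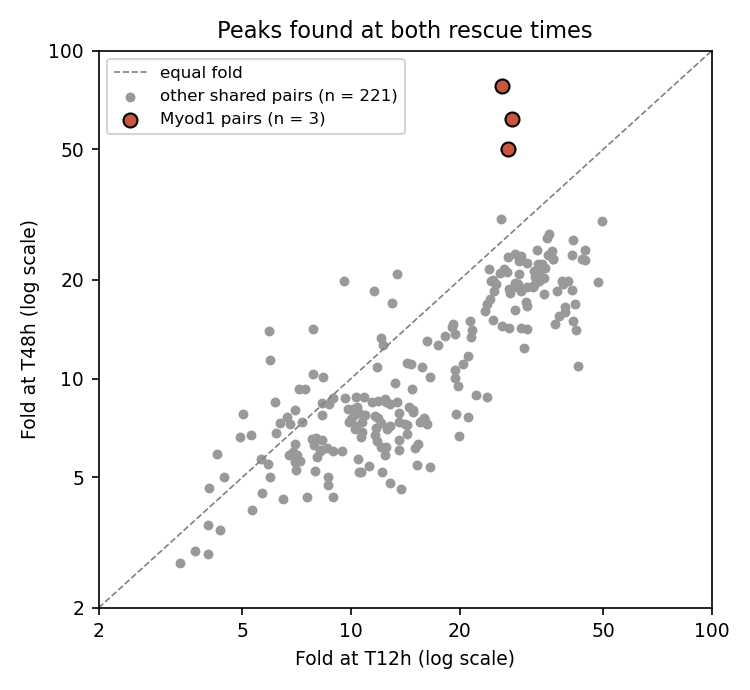
Deposited fold at T12h (x axis) and at T48h (y axis), both on log scales, for 224 pairs of overlapping peaks. The dashed line marks equal folds; the 3 Myod1 pairs (red) lie above it at 50.24 to 78.16, while the other 221 pairs (grey) reach at most 30.65 at T48h and 29 of them lie above the line. The Myod1 folds were known when the genes were chosen.

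The pairs most like Myod1 in this ratio were weak peaks. The 5 highest log2 ratios outside Myod1 belonged to 2 peaks in Esrrb, an orphan nuclear receptor gene of pluripotent cells, with 1.23 and 0.85, to a peak in Sos2 with 0.93, and to 2 peaks far from any gene with 1.06 (nearest gene Cst10) and 0.68 (nearest Gm19233). They differed from the Myod1 median of 1.16 by 0.08 to 0.48. The stronger ratio in Esrrb came from 27 tags at T12h and 59 at T48h, with folds of 5.92 and 13.93. The Cst10 pair held 22 and 33 tags, and the Sos2 pair 24 and 37. No tag count at T48h in these 5 pairs exceeded 91.

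Crowding of peaks in a short gene was seen in few other places. Of 5034 protein-coding genes of at most 5 kb, 100 held a summit at T12h and 51 at T48h. Of these, 5 held 2 or more at T12h (Gm46725, Mfsd10, Myod1, Rpl36 and Tssk6) and 3 at T48h (Gm46294, Myod1 and Rpl36). Myod1 was the 1 gene of this size with 3 at either time, but with peaks less than 300 bp apart joined it held 1 at T12h and 2 at T48h and no gene of this size held 3. Anywhere in the genome, 3 summits fell within 2619 bp in 2 places at each time, in Myod1 and near Gm3489 at T12h, and in Myod1 and Rnf220 at T48h.

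The other protein-coding genes with 3 or more summits at either time were far longer. Myod1 had 1.15 summits per kb at both times, against 0.164 at T48h in Lhx2, an eye field gene of 30.5 kb, 0.0462 at T12h in Ezh2, the Polycomb methyltransferase gene, and 0.0367 at T48h in Nr3c1, the glucocorticoid receptor gene. Esrrb, Gm26650 and Rnf220 had 0.0312 at T48h, 0.0166 at T12h and 0.0133 at T48h. These values divide by the whole gene and do not show local crowding. The 3 Rnf220 summits at T48h spanned 656 bp, less than the 1313 bp spanned by those in Myod1. Lhx2 folds at T48h ran from 6.32 to 12.15 and those in Nr3c1 from 8.77 to 24.74. The highest filling of positions in these 6 genes was 11.8%, in the single Rnf220 peak at T12h. The summits per kb rest on the count by which the genes were chosen, so nothing is read from the difference. With peaks less than 300 bp apart joined, Myod1 no longer held 3. Gm26650 and Ezh2 still did at T12h, and Esrrb, Nr3c1 and Lhx2 at T48h.

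**Figure D4:**
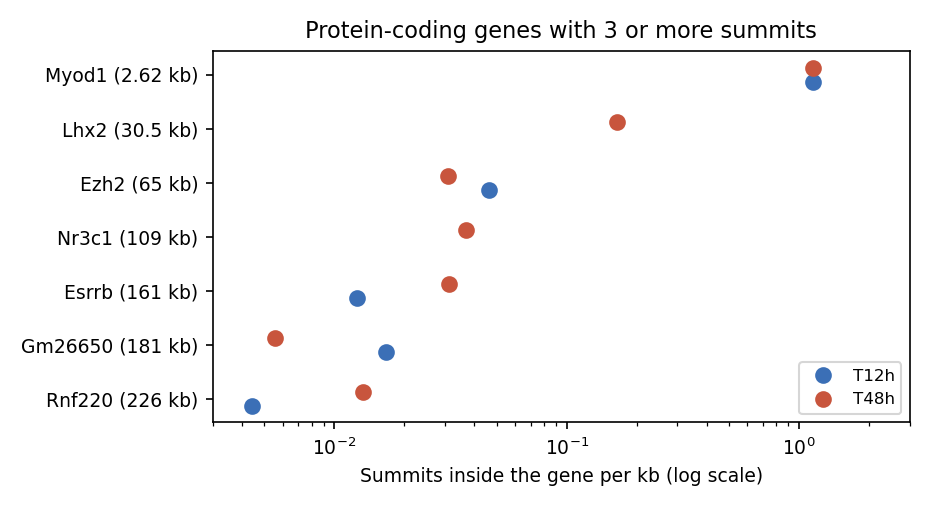
Summits inside the gene per kb of gene length (x axis, log scale) for the 7 protein-coding genes with 3 or more summits at either time, each row labelled with the gene and its length. Points are T12h (blue) and T48h (red), and times with 0 summits have no point. Myod1 stands at 1.15 at both times and Lhx2 next at 0.164. Local crowding is not shown, and the 3 Rnf220 summits at T48h span 656 bp against 1313 bp in Myod1. Peaks are as called, and the Myod1 count was known when the genes were chosen.

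Myf5, Myf6 and Myog held 0 peaks inside or within 20 kb at both times, while a summit inside or within 20 kb was found for 7.69% of protein-coding genes at T12h and 3.49% at T48h, and Myod1 was the 1 of 4 members that had one. Myf5, the first of the factors to appear in the mouse embryo, lies on chromosome 10 from 107482908 to 107486927. Myf6, also called MRF4, follows at 107492848 to 107494723, 5.92 kb away, so their flanks overlap and they are not independent. The nearest T12h peak to both lay 6.09 and 6.10 Mb away, with 19 tags and a fold of 11.6. The nearest T48h peak lay 78.0 kb from Myf5 and 70.3 kb from Myf6, inside the overlapping genes Ptprq and Gm36177, with 19 tags, a width of 179 bp and a fold of 8.77.

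Myog, which encodes myogenin, lies on chromosome 1 from 134290004 to 134292548. Its nearest peaks were 1.55 Mb away at T12h, with 20 tags and a fold of 6.21, and 8.73 Mb away at T48h, with 19 tags and a fold of 7.86. Myoparr, a lncRNA gene known from its place at the Myog promoter, ends 0.243 kb from Myog and held no summit (0 at each time). The nearest peaks outside the Myod1 peaks were 283 kb away at T12h (22 tags, fold 6.8) and 235 kb away at T48h (17 tags, fold 6.96). The neighbours of Myod1 within 50 kb, the potassium channel gene Kcnc1 at 17.1 kb and Gm45923 at 3.98 kb, held 0 summits. No summit lay just inside or just outside the 20 kb limit for any of the 4 genes, the closest outside being the one 70.3 kb from Myf6.

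**Figure D5:**
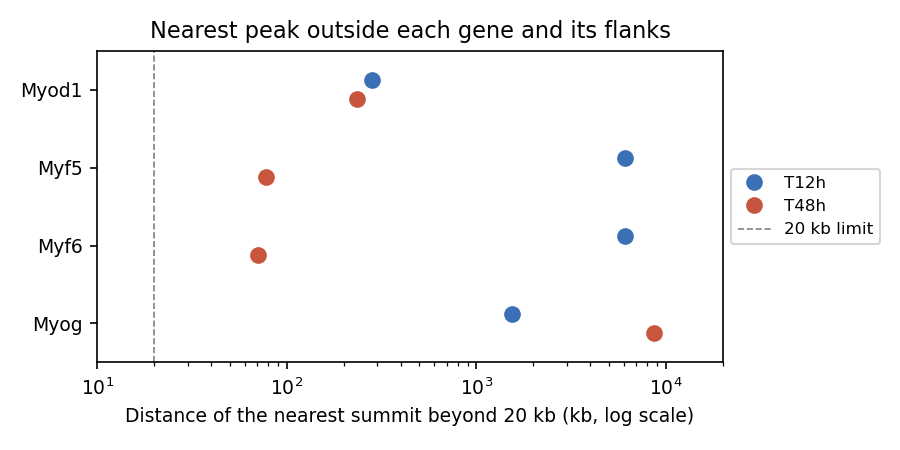
Distance in kb (x axis, log scale) from each gene to the nearest summit beyond 20 kb, at T12h (blue) and T48h (red), with the 20 kb limit as a dashed line. Every point lies well beyond the limit, the closest at 70.3 kb from Myf6 at T48h and the farthest at 8734 kb from Myog at T48h.

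Genes linked to the muscle regulatory factors, and factors of the same family from other lineages, were looked up in 6 lists of 155 genes. These lists were drawn up for this report. Over all lists, 11 genes (7.10%) had a summit inside or within 20 kb at T12h and 6 (3.87%) at T48h, close to the 7.69% and 3.49% of all protein-coding genes. Of 28 upstream regulators of myogenesis, 1 had a peak at T12h (Six5) and 2 at T48h (Six5 and Lhx2), and neither Pax3 nor Pax7, the paired box genes that switch on Myf5 and Myod1, was among them. The Six5 peak lay 19.8 kb away inside Bhmg1, just within the limit, with folds of 10.94 and 7.76. Of the 3 E-protein genes, Tcf3, Tcf4 and Tcf12, 0 had a peak at either time. Of 21 inhibitors, among them the Id genes and Twist1, 0 had one.

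Of 18 MEF2 and cofactor genes, 5 (27.8%) had a peak at T12h and 2 (11.1%) at T48h. Among all protein-coding genes 7.69% and 3.49% had one, and with 18 genes nothing is read from the difference. Mef2c and Mef2d, whose products bind muscle promoters together with the muscle regulatory factors, had one at both times. The Mef2c peak lay inside the gene with 17 tags and a fold of 8.38 at T12h, and with 39 tags and a fold of 10.12 at T48h. The Mef2d peak lay 5.73 kb outside the gene, beside 1700113A16Rik, with 89 and 81 tags and folds of 13.61 and 6.52. Meis1, Crebbp and Carm1 had a peak at T12h, with folds of 9.71, 7.07 and 6.68. These lay 7.533, 3.515 and 0.571 kb outside the genes, and the Crebbp peak lay inside Trap1.

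Of 36 other lineage factors of the basic helix-loop-helix family, 4 (11.1%) had a peak at T12h and 0 at T48h. Among all protein-coding genes 7.69% and 3.49% had one, and nothing is read from the difference. Ascl2, a trophoblast factor, had a fold of 8.93, Ascl4 one of 4.59, and Mesp2, a segmentation factor of the early mesoderm, one of 7.14. Mesp1 was counted for the peak inside Mesp2, 17.7 kb away. These peaks held 28 to 41 tags, against 383 and 376 in the strong Myod1 peaks at T12h.

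Of 49 target and structural genes of muscle, 1 (2.04%) had a peak at T12h, Actn2, and 2 (4.08%) at T48h, Actn2 and Chrna1. Among all protein-coding genes 7.69% and 3.49% had one. Actn2 encodes alpha-actinin 2, which anchors actin in the Z-disc of muscle. Its peak on chromosome 13 ran from 12340180 to 12340979 at T12h, with 157 tags and a fold of 14.88, and from 12340224 to 12340872 at T48h, with 83 tags and a fold of 7.92. So the fold at Actn2 was lower at T48h, unlike that at Myod1. The summits lay 63 and 51 bp downstream of the annotated start. The Chrna1 peak, near the gene of the muscle acetylcholine receptor, lay 6.14 kb outside it with 15 tags and a fold of 8.04. Myh, Tnn and Ckm genes, the classical markers of differentiated muscle, had 0 peaks.

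Promoter windows from RefSeq (GRCm38.p6), from 250 bases before to 50 after the start, were held for Myf5 and Myog, 2 of the 4 members, and not for Myod1 and Myf6. Of the listed genes, Actn2 was the 1 whose window was overlapped by a peak, at both times, so it is shown, with Myog as a member whose window no peak overlapped. Capitals mark the E-box, CANNTG, which reads the same on both strands, and sites that overlap were both counted.
Actn2, minus strand, chr13:12340683-12340982: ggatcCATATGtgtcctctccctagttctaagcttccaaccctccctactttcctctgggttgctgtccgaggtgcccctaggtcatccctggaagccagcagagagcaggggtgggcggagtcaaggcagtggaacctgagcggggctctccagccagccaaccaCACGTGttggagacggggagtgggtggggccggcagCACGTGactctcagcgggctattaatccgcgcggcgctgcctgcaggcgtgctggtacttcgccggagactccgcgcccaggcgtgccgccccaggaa
Myog, plus strand, chr1:134289754-134290053: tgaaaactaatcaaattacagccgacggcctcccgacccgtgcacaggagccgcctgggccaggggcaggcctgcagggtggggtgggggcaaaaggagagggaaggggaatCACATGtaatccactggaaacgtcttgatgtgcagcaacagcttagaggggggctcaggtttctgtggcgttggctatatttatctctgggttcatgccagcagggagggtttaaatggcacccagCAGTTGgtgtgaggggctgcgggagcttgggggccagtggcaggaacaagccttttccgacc

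The Actn2 window held 3 E-boxes, which begin 245, 84 and 48 bases before the start, and 2 of them read CACGTG, the form known as the preferred site of MYC and USF proteins. Of 32851 windows, 7.15% held CACGTG at least once and 0.594% held it 2 or more times. The Myog window held 2 E-boxes, which begin 138 and 12 bases before the start, and the Myf5 window held 0. CANNTG was found in 72.3% of all windows and 2 or more times in 39.6%, so its presence marks no gene. The matches are descriptions of the sequence and say nothing of binding.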

How the data were processed

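Peaks were called by MACS 1.4.2 on 1 ChIP library against 1 control library per time, at a p limit of 1e-05 and with 1 tag kept per position, per the file headers. Of the tags read, 39% at T12h and 46% at T48h were redundant in the ChIP libraries and were dropped, per the file headers. The submitters' processing notes also name mm10, Bowtie2, SAMtools 1.5, HOMER 4.9.1 and deepTools. The tag counts per peak are whole numbers as deposited by the authors, not normalised. The score, minus 10 times the log10 of the p-value, the fold, an enrichment over local background, and the false discovery rate, a percent, are deposited values of the authors.

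Peaks, genes and tags were joined with Python 3.11.15, numpy 2.4.6, pandas 2.3.3 and scipy 1.17.1, and drawn with matplotlib 3.10.9. The summit position is the start plus the summit offset minus 1. Shared pairs are the peaks of both lists that overlap each other most. Tags were scaled to the tags kept after duplicate removal. Intervals are exact 95% intervals, cover counting error only and take no account of the limit of 1 tag per position. The counting and interval steps were tested on simulated data. The members, lists and measures were chosen with earlier results of these data known. Named genes are the members, their neighbours within 50 kb, listed genes with a peak, genes with 3 or more summits, and the 5 pairs most like Myod1; Rpl23, Rpl26, Pgk1, the genes of at most 5 kb and other genes near singled-out peaks were named after their values were seen. Alternatives covered distance, score, false discovery rate, overlap, joining of peaks and scaling of tags.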

Additional observations from a re-analysis of the deposited data

How the results depend on the processing

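Of 46 values recomputed, 35 stayed within 1.5 times, within the interval or within the spread of the Myod1 or shared pairs, 11 moved, and 0 changed direction. This tally is no measure of robustness. All member summits lay inside Myod1 and the closest other summit lay 70.3 kb from a member. The member counts at 5, 10 and 50 kb and by any overlap therefore could not move. Counts and shares have no direction to change, so that part concerns the log2 ratios only. Limiting peaks to a false discovery rate of at most 5% left 1 of the 3 Myod1 peaks at T12h, the second, and kept all 3 at T48h. The first and the third T12h peaks, dropped by this limit, ranked 6 and 4 of 1197 by score. The share of protein-coding genes with a peak was 5.08% at T12h and 2.12% at T48h within 5 kb, and 12.3% and 6.00% within 50 kb. The share with 3 or more peaks inside fell to 0.00457% at T12h in the upper 50% of the list by score, where Myod1 alone was left, and to 0.0137% at T48h when peaks less than 300 bp apart were joined. Joining left Myod1 with 1 peak at T12h and 2 at T48h: both T12h gaps and the second T48h gap (253 bp) were shorter than this limit, and the first T48h gap (342 bp) was longer. The log2 ratio of Myod1 tags was 1.10 when scaled to tags read, 1.56 unscaled and 2.38 when scaled to tags in peaks. Correcting for the limit of 1 tag per position, with tags assumed evenly placed, gave 1.79; this correction and leaving Myod1 out of the shared pairs were chosen after seeing the data. No paired analysis was possible because there was 1 library per group. Depth limits the second peak most, with 35 tags at T12h, and weak peaks under the calling threshold at Myf5, Myf6 or Myog would not be in these lists.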
